A study of Homo sapiens with 8 samples.

Results

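Long-read transcripts that lie wholly inside introns were described in HAP1 cells, together with the genes that hold them, called hosts here. A member was an assembled transcript of the long-read table with a strand, on a main chromosome, inside a same-strand GENCODE gene in hg38, without overlap with any exon on that strand, and with a TPM above 0 in both long-read libraries. The rule found 13157 members among 301869 listed transcripts, of which 72454 were assembled and not taken from the annotation. They formed 13121 loci when overlapping members on a strand were merged, in 4969 hosts. HAP1 is a near-haploid adherent line derived from a chronic myeloid leukemia line, and no gene was edited and no treatment given in any group. Nuclei were extracted with urea and detergent into a pellet, the chromatin fraction, and a supernatant, the nucleoplasm fraction, each of which received ERCC spike-in standards. Of 8 libraries, 6 were stranded short-read libraries, 3 of each fraction, from 3 independent cultures. Whether equal replicate numbers mark the same culture is not stated. The other 2 were long-read libraries of the chromatin fraction alone, in which ribosomal RNA was depleted and a poly(A) tail was added by enzyme before cDNA synthesis. They were nanopore direct cDNA libraries, a method that by the paper's account loses the strand of origin. The listed strand of a member, on which the rule rests, can therefore be wrong. The study speaks of biological replicates, without naming the cultures of the long-read pair.

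Introns are transcribed as part of the precursor RNA and are removed by the spliceosome, which cuts at a GT at the 5′ splice site and an AG at the 3′ splice site. Most of the excised intron is then degraded in the nucleus, so that intronic RNA on the gene's strand can come from the precursor, from the excised intron or from a transcription unit of its own. Introns also hold processed pseudogenes, which are copies of mRNAs that were inserted into the genome by reverse transcription.

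Several of the most abundant members carried coding sequence of well-known mRNAs, which is shown here because these few members held much of the signal. MSTRG.50635.1, in an intron of RBFOX2, held on its listed strand the start of the RPL41 coding sequence. MSTRG.67818.1, in OOEP-AS1, held the start of RPL39 on the strand opposite to the one listed. MSTRG.32417.1, in RSKR, and MSTRG.66419.1, in RIPOR2, held the starts of RPS7 and PPIA, again on the opposite strand. RPL41, RPL39 and RPS7 encode ribosomal proteins and PPIA encodes cyclophilin A. The stretches differ from the mRNAs at few or no bases, so the split of reads between these places and the mRNAs' own genes is uncertain. How much of the TPM of such members came from the intron was not tested. The first 60 bases of each coding sequence are from the GENCODE transcripts, and capitals mark bases at which the hg38 stretch and the mRNA differ. The first 2 stretches had 0 mismatches, so the mRNA is not printed again for them.
RBFOX2 intron, chr22:35838598-35838657, minus strand: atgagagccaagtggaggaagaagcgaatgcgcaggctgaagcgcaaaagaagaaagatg
OOEP-AS1 intron, chr6:73373204-73373263, minus strand: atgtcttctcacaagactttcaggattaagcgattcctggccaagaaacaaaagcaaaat
RSKR intron, chr17:28467822-28467881, plus strand: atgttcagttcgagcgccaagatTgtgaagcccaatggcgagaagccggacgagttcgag
RPS7 mRNA: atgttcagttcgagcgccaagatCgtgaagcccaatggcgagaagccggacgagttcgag
RIPOR2 intron, chr6:24976419-24976478, plus strand: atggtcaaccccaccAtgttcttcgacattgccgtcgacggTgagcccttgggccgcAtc
PPIA mRNA: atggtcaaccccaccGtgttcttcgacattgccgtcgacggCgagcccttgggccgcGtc

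A second set of members ran exactly from one exon to the next, and their ends are shown because they fell on annotated exon borders. Each line gives 30 bases on the gene's strand in hg38, and capitals mark the 2 outermost bases of the member. At the 5′ side these follow 10 bases of exon, and at the 3′ side 10 bases of exon follow them. The hosts were chosen for printing after their values were seen, and as examples with GT and AG. The members of ANAPC16, with 23.3 and 41.9 TPM, and FANCB, with 38.9 and 3.55 TPM, also ran from exon to exon and had a higher mean TPM than those of PDE5A and ARHGEF12, but began with GT and ended in CA and TT. The ANAPC16 member spanned 372 bases of a host intron of 2753 bases, so not all of its bordering exons belonged to the host.
NPIPA9, 5′ side, chr16:16329551-16329580, plus strand: cggggctcagGTgaggggcgcggcggggtg
NPIPA9, 3′ side, chr16:16331038-16331067, plus strand: ccctccctcttgccctccAGgtaccacggc
PDE5A, 5′ side, chr4:119504516-119504545, minus strand: tcaacaacggGTatgttacttagtgacaat
PDE5A, 3′ side, chr4:119502646-119502675, minus strand: gagtctgttatttatttcAGatagcagaac
ARHGEF12, 5′ side, chr11:120424406-120424435, plus strand: ctaatcaaatGTaggtgaatgttattctta
ARHGEF12, 3′ side, chr11:120428049-120428078, plus strand: ttccgtctccccaccccaAGctggttccta

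Short-read depth was 38895027 to 43804918 reads in chromatin and 75737601 to 79523938 in nucleoplasm. ERCC reads made up 0.202% to 0.244% of reads in chromatin and 0.0568% to 0.0749% in nucleoplasm. The sample field for the RNA fraction names chromatin for all libraries, so the fractions were taken from the titles. MALAT1 and NEAT1, nuclear lncRNAs, were higher in the libraries titled chromatin by log2 3.09 and 2.40, and the mRNAs of GAPDH and B2M were lower by log2 -2.35 and -2.11. BCR and ABL1 had 697 to 1470 normalized counts over the 6 libraries. SPI1, GATA1, MPO and PTPRC, genes of the blood lineages, were at 0 in all 6 libraries and CD34 had at most 3.6 normalized counts. HBG1 could not be matched to a short-read gene.

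Most members were rare. The mean TPM over the pair of libraries had a median of 2.38, with quartiles of 1.76 and 3.27, while the highest was 3343. The members together held 7.11% of the TPM in replicate 1 and 6.65% in replicate 2. TPM is scaled per length and holds no depth, but 1 value recurred in each library, 2.196 TPM at 2784 transcripts in replicate 1 and 1.317 TPM at 1061 transcripts in replicate 2, and its double recurred too. In units of that value the median member stood at 1.28 in replicate 1 and 1.61 in replicate 2. At least 3 units in both libraries were reached by 637 members, or 4.84%. Of the 19662 intronic transcripts listed, a further 2690 were above 0 in replicate 1 alone and 3797 in replicate 2 alone.

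The libraries gave unlike values for rare members and like values for abundant ones. Over all 13157 members the Pearson correlation of log2(TPM + 0.1) was 0.155, and 56.6% of members differed by more than 2-fold. Over the 637 members with at least 3 units in both libraries, a choice that itself removes members low in 1 library, it was 0.928. The correlations are over members that share the same libraries and are given as descriptions.

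**Figure D1:**
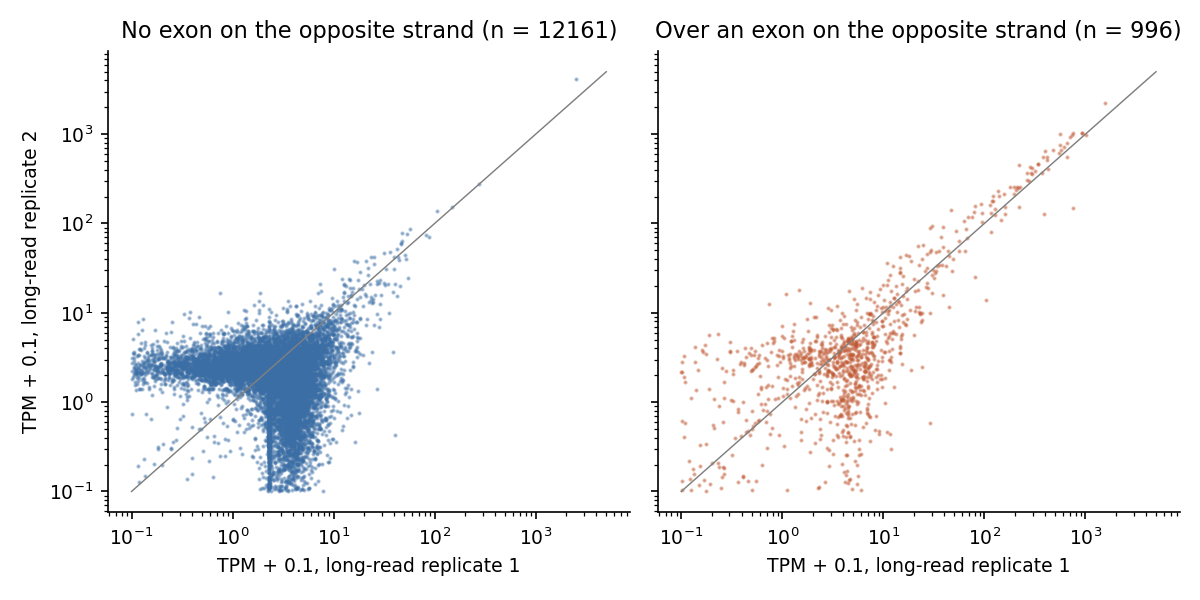
TPM + 0.1 of each member in long-read replicate 1 (x, log axis) and replicate 2 (y, log axis), with the line of equal values. At left, 12161 members without an exon on the opposite strand form 2 arms of members that are low in 1 library. At right, 996 members over an exon on the opposite strand extend along the line.

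A small class of members held much of the signal. Of all members, 996 (7.57%) lay over an exon of a gene on the opposite strand, and these held 39.7% of the members' TPM in replicate 1 and 48.6% in replicate 2. Among the 63 members with a mean TPM of at least 100, 59 lay over such an exon. For 53 of them it belonged to a processed pseudogene, and for 30 its symbol began with RPL or RPS and a digit, as in ribosomal protein genes and their pseudogenes. That count leaves out RPLP0P6 and copies listed by identifier only. The opposite exon belonged to a protein-coding gene for 473 of the 996, to a lncRNA for 266 and to a processed pseudogene for 184. The correlation of log2(TPM + 0.1) between the libraries was 0.749 over the 996 members and -0.06 over the 12161 others.

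The 10 members with the highest mean TPM were all of this kind but one. MSTRG.50635.1 in RBFOX2, a splicing regulator, had 2487 TPM in replicate 1 and 4199 TPM in replicate 2, and no annotated exon lay on the opposite strand. MSTRG.67818.1 in OOEP-AS1 lay over RPL39P3 and had 1568 and 2252 TPM. MSTRG.27049.1 in UBE2Q2P2, with 1012 and 991 TPM, and MSTRG.61657.1 in ENSG00000250697, with 923 and 1020 TPM, lay over processed pseudogenes listed by identifier only. MSTRG.41841.13 in LINC02613 lay over RPLP0P6 and had 922 and 1019 TPM. The libraries stood within 2-fold of each other for each of these 5 members.

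The other 5 were lower on average. MSTRG.63592.1 in ARL14EPL had 754 and 1043 TPM and matched RPS25. MSTRG.32417.1 in RSKR, over RPS7P1, had 741 and 967 TPM. MSTRG.47463.1 in KIZ, a centrosome gene, lay over RPS15AP1 and had 697 and 925 TPM. MSTRG.57073.1 in IQCG lay over RPL35A itself, not over a pseudogene, and had 562.2 and 1010 TPM. MSTRG.66419.1 in RIPOR2, over PPIAP29, had 651 and 801 TPM.

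Alignment of the members' own genomic sequence to GENCODE transcripts gave 357 matches over at least 50% of the member at an identity of at least 80%. The match ran in the direction opposite to the listed strand for 329 members and in the listed direction for 28. Of the 357 members, 309 lay over an exon on the opposite strand, and since the rule leaves out exons on the listed strand, a match to a transcript annotated at the place can run only in the opposite direction. Members with a match held 35.4% of the members' TPM in replicate 1 and 46.4% in replicate 2. Among the members with neither a match nor an opposite exon, 12113 in all, the highest mean TPM was 150.6. In SLC7A5, an amino acid transporter gene, MSTRG.30878.5 at chr16:87837968-87838713 on the minus strand had neither and stood at 57.3 and 86.9 TPM.

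Hosts were mostly protein-coding genes. Of 4969 hosts, 4033 were protein coding and 828 were lncRNAs, and 87.2% of members lay in protein-coding hosts. A single locus was found in 53.9% of hosts, while the 212 hosts with at least 10 loci held 25.3% of all loci. Host span and number of loci had a Spearman correlation of 0.388 over the 4969 hosts, a description in which longer genes offer more sequence.

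FHIT, a diadenosine triphosphate hydrolase gene that spans a common fragile site at chr3:59747277-61251459, held most loci with 48. They lay in 8 of its introns and covered 9.14% of its span. MECOM, a zinc finger transcription factor, followed with 40 loci over 31.7% of its span. DLG2, a scaffold protein of synapses, had 38 loci and CUX1, a homeobox factor, had 37. NKAIN3 had 35 loci, SSBP2 33, CENPP and DIAPH2 31 each, and DACH1 and EDA 29 each. CENPP encodes a centromere protein, DIAPH2 a formin and EDA the ligand ectodysplasin A.

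Within these 10 hosts the members were low. Their median TPM lay between 1.91 in FHIT and 2.68 in DACH1, and the highest single member, in DACH1, had a mean of 11.8 TPM. Summed over members, FHIT had 93.7 TPM in replicate 1 and 97.1 TPM in replicate 2, and MECOM had 103 and 112 TPM. The sums differed most in CUX1, with 106 and 61.3 TPM, and in CENPP, with 107 and 67.6 TPM. Of the 31 members in CENPP, 30 lay in its longest intron and 9 lay over an exon on the opposite strand. In NKAIN3 26 of 35 members lay in the first intron, which is also its longest.

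**Figure D2:**
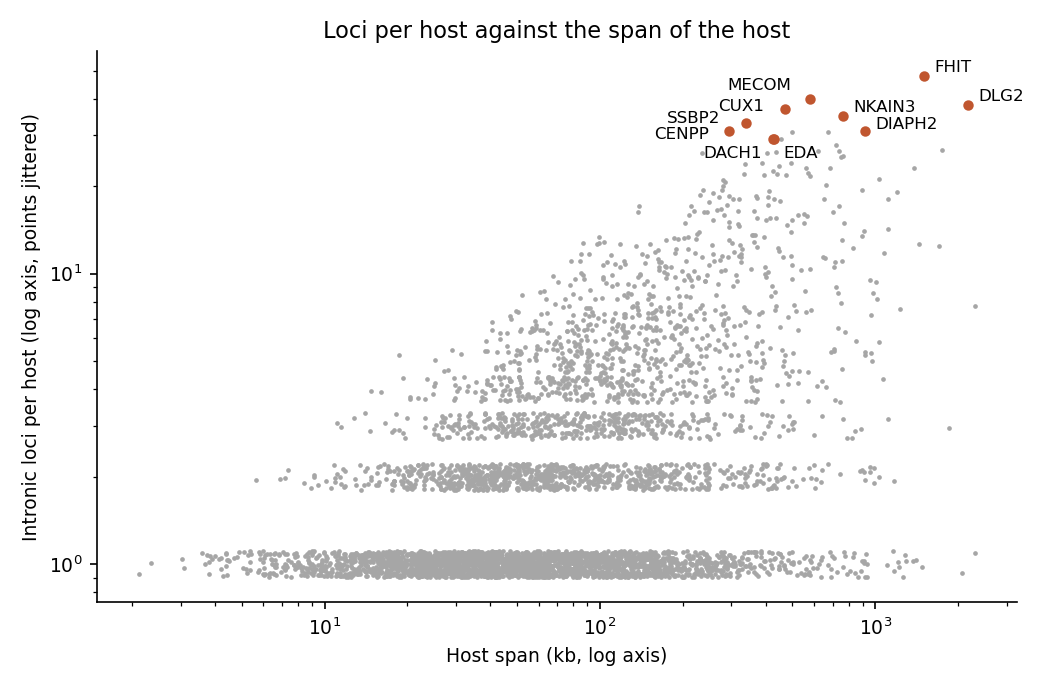
Number of intronic loci per host (y, log axis) against the span of the host in kb (x, log axis) for 4969 hosts. The 10 hosts with most loci are named in orange, all of them with at least 29 loci, and the other points are jittered vertically.

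Members were spread along the whole host with a tilt toward its 5′ part. When the intronic sequence of each host was divided into 5 equal parts from 5′ to 3′, these held 23.5%, 21.2%, 19.3%, 19.4% and 16.7% of members, where an even spread gives 20%. The tilt was found in hosts over 100 kb, from 25.9% in the first part to 16.4% in the last. In hosts of 100 kb or less the first 4 parts held 20.3% to 21.2% and the last held 17.1%. No test was made of this difference, since members of a host share their source. DLG2 was uneven, with 9, 21 and 8 members in its first 3 parts and 0 in the last 2.

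Member spans ran from 200 to 73342 bases with a median of 1773. The table gives no exon structure, so a span is the distance from start to end in the genome. The first intron held 17.7% of members and the longest intron of the host held 42.5%. The nearest exon on the strand was under 1 kb away for 32.9% of members and 20 kb or more away for 10.8%.

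Some ends fell exactly on exon borders, of the host or of another gene on its strand. A total of 1702 members (12.9%) abutted an exon with no base between, whereas 107 members had their nearest exon at 2 to 20 bases. The 5′ end followed an exon directly in 1110 members, and 91.7% of these began with GT, against 4.42% of the other members. The 3′ end was followed directly by an exon in 841 members, and 93.1% of these ended in AG, against 7.88% of the others. The bases beside an annotated exon are mostly splice sites by annotation. The shares of GT and AG thus follow from the choice of these members and say nothing on the reads. Members that ran from exon to exon numbered 249, in 235 hosts, and 215 of them had both GT and AG. Their median span was 1699 bases and their median mean TPM was 3.84, against 2.33 for members that did not abut an exon.

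Among the printed examples the exon-to-exon member of NPIPA9 had 46.5 TPM in replicate 1 and 60.03 TPM in replicate 2. The member of ARHGEF12, a guanine nucleotide exchange factor for RhoA, had 24.2 and 13.3 TPM. The member of PDE5A, the cGMP phosphodiesterase, had 40.2 TPM in replicate 1 and 0.327 TPM in replicate 2, so that a single library carried it. NPIPA9 belongs to a family of near-identical copies, so the split of its reads from those of NPIPA1, whose exon-to-exon member had 42.6 and 52.1 TPM, is uncertain.

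**Figure D3:**
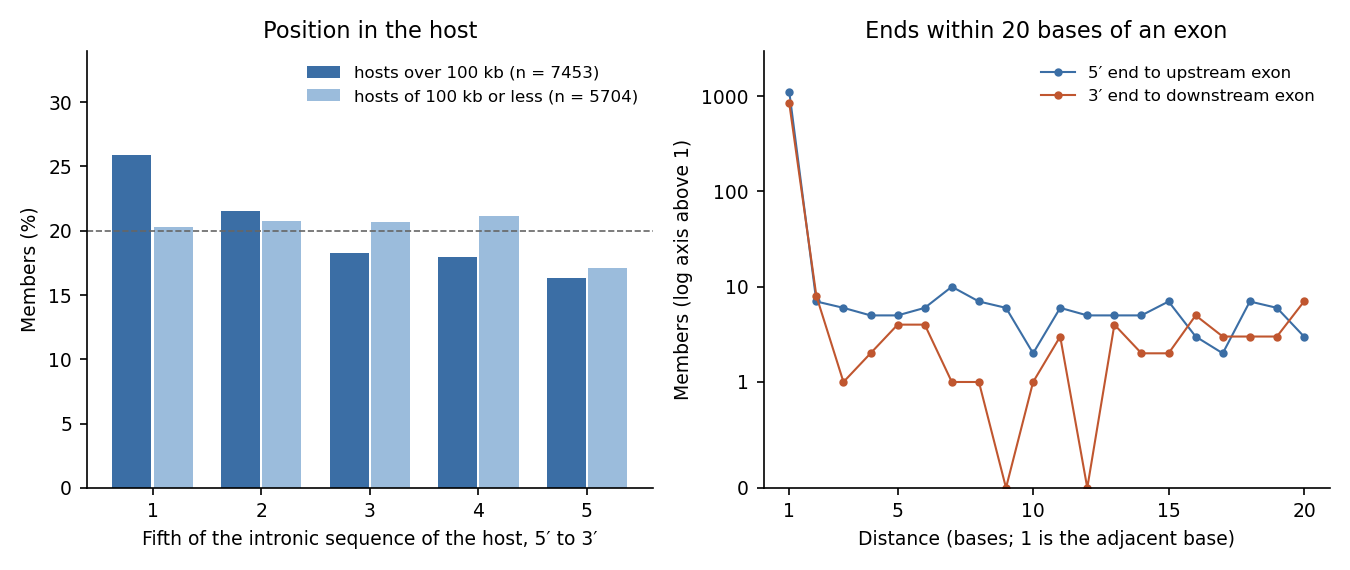
At left, percent of members (y) in each of 5 equal parts of the intronic sequence of the host (x), for hosts over 100 kb and hosts of 100 kb or less, with the even share of 20% dashed. At right, number of members (y, log axis above 1) by the distance of each end to the next exon in bases (x), where 1110 and 841 members stand at distance 1.

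The 5 members with the longest span lay in DACH1, SLC25A12, EFNA5, MTCP1 and LRRC8D. The one in DACH1, a transcriptional corepressor gene, reached over 73342 bases at chr13:71742594-71815935 on the minus strand, or 39.9% of the first intron, with 5.14 and 3.92 TPM. The one in SLC25A12, a mitochondrial carrier gene, spanned 61292 bases and 87.4% of its intron, with 15.8 and 9.63 TPM. The members in EFNA5, an ephrin ligand gene, MTCP1 and LRRC8D spanned 53467, 52074 and 51715 bases. Those in SLC25A12 and MTCP1 also lay over an exon on the opposite strand.

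Intronic transcripts were more often listed on the host's strand than on the other. Members free of exons on both strands numbered 12161, and transcripts inside a gene on its other strand and likewise free of exons numbered 8602, a ratio of 1.41. A transcript inside genes on both strands was counted with the members alone. The counts are therefore tilted toward the host's strand where genes overlap. In hosts with under 1 normalized chromatin count per kb of annotated exon the ratio was 1.98. It was 1.86 at 1 to 10 counts, 2.27 at 10 to 100, 1.27 at 100 to 1000 and 1.32 at 1000 or more. Median TPM was 2.33 on the host's strand and 2.37 on the other. Counted in the same way, FHIT held 17 transcripts on the other strand beside 48 on its own, DIAPH2 held 20 beside 30 and CENPP held 0 beside 22. Whether the table was made from reads with an assigned strand is not stated, and the part this plays was not tested.

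The sequence just past the 3′ end was seldom rich in A. At least 12 A in the next 20 bases were found for 2.61% of members, against 2.02% in a window 1 kb further on and 4.46% for annotated transcripts above 0 in both libraries. Transcripts inside a gene on its other strand gave 4.39%, and assembled transcripts over exons gave 2.15%. In the window 1 kb further on, these 2 classes gave 3.85% and 1.92%, and annotated transcripts gave 1.94%. At least 12 T in the 20 bases before the 5′ end were found for 3.41% of members, against 2.62%, 1.52% and 2.26% of other-strand intronic, exonic and annotated transcripts.

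The fraction ratio of the hosts was then read from the short-read libraries, which played no part in the choice of members. A short-read gene was found for 170 hosts by identifier and for 4411 by overlap, and 388 had none. Of these, 4177 hosts passed the filter on low values, and they corresponded to 4155 short-read genes and held 91.1% of members. Differences are log2 of chromatin minus nucleoplasm from limma with Benjamini-Hochberg adjustment over all 26066 genes tested, and a gene was called at an adjusted p under 0.05 and a log2 difference beyond 2 in size. Both fractions came from nuclei of 1 cell line, and relative counts give a gene's share of a fraction, not its amount per cell.

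Hosts divided between the fractions with few extremes. Among the 4155 host genes, 268 (6.45%) passed the threshold toward chromatin and 106 (2.55%) toward nucleoplasm, beside 21.2% and 8.47% of all genes tested. Of the 268, 66 (24.6%) had under 10 normalized counts in at least 1 nucleoplasm library and so passed the filter through chromatin alone. With at least 10 in every nucleoplasm library, 202 of 4044 host genes were called in chromatin, beside 2374 of 21834 among all genes. The median host had a log2 difference of -0.18, beside -0.02 over all genes tested. Protein-coding hosts had a median of -0.30 with 90 of 3643 called in chromatin, and protein-coding genes without members had a median of -0.44 with 375 of 8837. LncRNA hosts had a median of 1.51, or 0.22 under ERCC scaling, and 165 of 452 were called in chromatin, or 49. When scaled by ERCC standards instead, all genes had a median of -1.33 and hosts of -1.50. Then 59 hosts (1.42%) passed toward chromatin and 1340 (32.3%) toward nucleoplasm, beside 11.9% and 34.4% of all genes. When scaled to the same total, the median was 0.44 over all genes, and those of hosts, protein-coding hosts and protein-coding genes without members turned to 0.29, 0.17 and 0.02. Then 449 hosts (10.8%) passed toward chromatin and 19 (0.457%) toward nucleoplasm, beside 25.6% and 3.83% of all genes.

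The median was higher in longer protein-coding hosts, from -0.88 under 20 kb to -0.42 at 20 to 100 kb, -0.10 at 100 to 400 kb and 0.32 at 400 kb or more, the last of which turned to -0.99 under ERCC scaling. Protein-coding genes without members gave -0.69, -0.36, -0.12 and 0.24 in the same bins, the last of which turned to -1.07. By number of loci, the median was -0.21 in hosts with 1 locus and 0.16 in the 211 tested genes with at least 10 loci. Of these 211, 18 (8.53%) were called in chromatin and 0 in nucleoplasm, beside 21.2% and 8.47% of all genes tested. Under ERCC scaling the median of the 211 turned to -1.16, with 3 (1.42%) and 43 (20.4%) called, beside 11.9% and 34.4% of all genes. With the same total the medians of hosts with 1 locus, of protein-coding hosts of 20 to 100 kb and of those of 100 to 400 kb turned to 0.25, 0.04 and 0.36, and those of the genes without members to 0.10 and 0.34. These groups were compared by their medians alone.

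**Figure D4:**
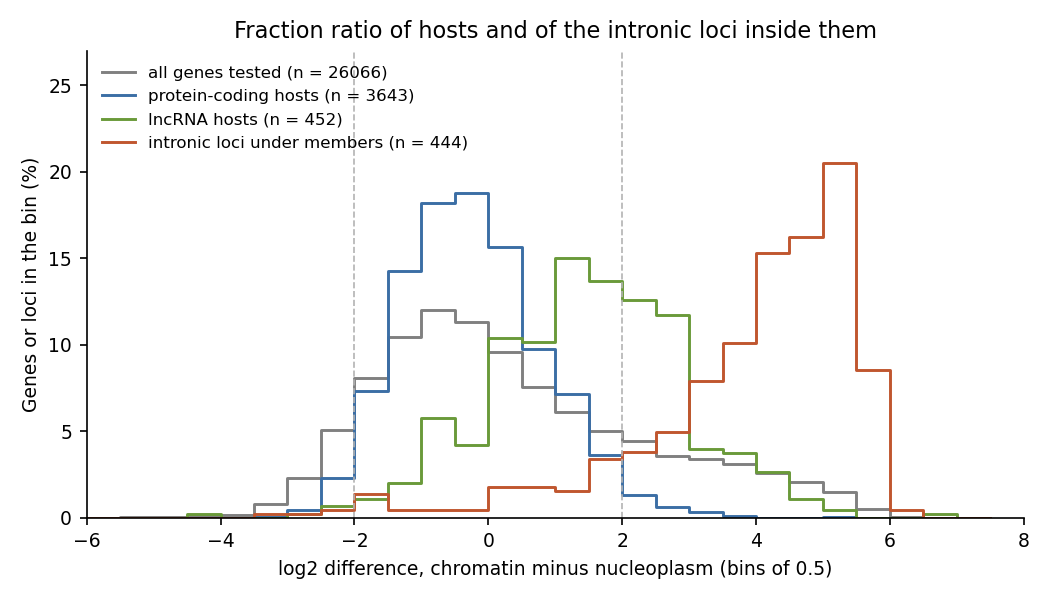
Percent of genes or loci (y) in bins of the log2 difference between chromatin and nucleoplasm (x), for all 26066 genes tested, protein-coding hosts, lncRNA hosts and intronic short-read loci under members, with the call thresholds of -2 and 2 dashed. The intronic loci have a median of 4.39 and protein-coding hosts of -0.30, which turns to 0.17 with the same total, and ERCC scaling moves the median of all genes from -0.02 to -1.33.

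Most of the 10 hosts with most loci had small ratios. FHIT had 588, 643 and 559 normalized counts in chromatin and 379, 387 and 373 in nucleoplasm, a log2 difference of 0.65 ± 0.07 (SE, n = 3 and 3, limma adjusted p = 2.24e-05). MECOM had 1523 to 1847 in chromatin and 1257 to 1330 in nucleoplasm, with a difference of 0.37. In both genes the fractions did not overlap, and the sign turned under ERCC scaling, to -0.67 and -0.95. The share of all genes without such overlap is not given here. CENPP had 1088 to 1221 in chromatin and 1147 to 1199 in nucleoplasm, and its difference of -0.05, or 0.41 with the same total, did not pass (limma adjusted p = 0.428).

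DLG2 was the one host of the 10 past the threshold. It had 1669, 1734 and 1603 normalized counts in chromatin and 356, 341 and 324 in nucleoplasm, a difference of 2.29 ± 0.06 (SE, limma adjusted p = 1.07e-08), or 0.97 under ERCC scaling. SSBP2, a single-stranded DNA binding protein gene, stood just short of it at 1.999, with 9229 to 11396 in chromatin and 2477 to 2553 in nucleoplasm. DACH1 stood at 1.60, DIAPH2 at 0.72 and EDA at 0.21, while CUX1 and NKAIN3 stood at -0.13 and -0.25, which turned to 0.33 and 0.22 with the same total. DIAPH2 and EDA turned sign under ERCC scaling, and DACH1 and SSBP2 did not.

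Among the 1299 tested genes with at least 3 loci, the highest ratios belonged to lncRNAs. LINC00276 had 51.2, 154.9 and 86.7 normalized counts in chromatin against 0, 6.03 and 2.53 in nucleoplasm. The nucleoplasm values were all under the filter of 10, so that it was tested through chromatin alone and its fitted difference of 4.94 depends on the pseudocount. MIR181A1HG and MIR222HG, the host transcripts of microRNAs, stood at 4.73 and 4.71. FTX, a lncRNA of the X-inactivation centre, had 27548, 31371 and 24942 in chromatin against 1341, 1358 and 1374 in nucleoplasm, a difference of 4.36 ± 0.08 (SE, limma adjusted p = 8.39e-09). EOLA2-DT stood at 4.10, and all 5 kept their sign under ERCC scaling.

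The lowest ratios belonged to protein-coding genes. BASP1, a membrane-bound signalling protein gene, had 558, 501 and 506 normalized counts in chromatin and 3961, 3839 and 3961 in nucleoplasm, a difference of -2.91 ± 0.06 (SE, limma adjusted p = 8.39e-09). BRK1, a subunit of the WAVE complex, stood at -2.78. MZT1, a partner of the gamma-tubulin ring complex, stood at -2.65. LAPTM4B, a lysosomal membrane protein gene, stood at -2.54 with 9 loci, and COMMD1 at -2.48.

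The hosts were also counted in 8 hand-written functional lists, whose counts stand beside the 21.2% and 8.47% called over all genes tested. The list of cytoskeleton and adhesion genes had 28 hosts of 41 genes with 254 loci, and 4 of its 25 tested hosts were called in chromatin, with a median of 0.29. They were SPTBN1, DST, MAGI2 and DLG2, with differences of 2.72, 2.13, 2.35 and 2.29. SPTBN1 encodes a spectrin, DST a plakin and MAGI2 a junction scaffold. FHIT stands in this list with most loci although it encodes a hydrolase. In the list of splicing and RNA-binding genes 1 of 14 tested hosts was called, LUC7L at 2.86, with a median of -0.12. Its hosts with most loci, MSI2 with 17 and TNRC6B with 11, stood at 0.34 and 0.29.

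No host was called in either direction in the other 6 lists. Chromatin regulators had 19 tested hosts with a median of 0.47, and CREBBP with 9 loci and CHD6 with 7 stood at 1.01 and 1.84. DNA replication and repair genes had 15 with a median of -0.14, and STAG1, a cohesin subunit with 17 loci, stood at 0.22 and RAD51B with 13 at 1.52. Kinases and phosphatases had 22 with a median of -0.38, and PTPRG with 25 loci and CDK8 with 12 stood at -0.68 and -1.20. Transport and nuclear pore genes had 12 with a median of -0.85, and their importins IPO7 and KPNA4, with 9 loci each, stood at -1.17 and 1.75. GTPase regulators had 18 with a median of 0.15, and RAPGEF2 with 16 loci and DENND1A with 14 stood at 0.15 and -0.63. Ubiquitin ligases and proteases had 18 with a median of 0.02, and USP34 with 19 loci stood at 0.25. Under ERCC scaling the medians of all 8 lists were negative, from -2.18 in transport and nuclear pore genes to -0.85 in chromatin regulators. Of the 143 list hosts, 0 were then called in chromatin and 29 in nucleoplasm, beside 11.9% and 34.4% of all genes. Of the 29, 8 were among the 12 of transport and nuclear pore and 8 among the 22 kinases and phosphatases. With the same total 13 passed toward chromatin and 0 toward nucleoplasm, beside 25.6% and 3.83% of all genes. The medians of the lists of replication and repair, kinases and phosphatases, and splicing and RNA binding then turned to 0.32, 0.09 and 0.34. Under ERCC scaling SPTBN1, DST, MAGI2, DLG2 and LUC7L stayed positive, while CREBBP, STAG1, MSI2, TNRC6B, RAPGEF2 and USP34 turned negative there.

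The intronic places themselves had a readout of their own in the short-read table only where reads were dense enough to assemble. The short-read table held 2273 genes that lay inside a same-strand gene without exon overlap, and 452 of them overlapped a member. Of the 444 that were tested, 390 (87.8%) were called in chromatin and 4 in nucleoplasm, beside 21.2% and 8.47% of all genes tested. The median log2 difference of the 444 was 4.39. These counts are a description, since 129 of the 444 had under 10 normalized counts in at least 1 nucleoplasm library and so passed through chromatin. Among the 315 with at least 10 in every nucleoplasm library, 265 were called in chromatin and the median was 4.43. Intronic loci not under members gave 1428 of 1770 (80.7%) and a median of 3.56. Under ERCC scaling the medians were 3.13 and 2.35. Members came from long-read libraries of the chromatin fraction alone, so overlap with a member itself favours RNA present in chromatin. Only 598 members (4.55%) lay over such a short-read locus, so the rest of the members have no intronic readout of their own. The loci under members were longer, with a median span of 4217 bases against 1023, and had a higher median chromatin count of 448 against 127.

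The ratio of intronic locus to host within a library does not depend on the scaling of the libraries beyond the pseudocount of 1. It was fitted over 2021 pairs, of which 78.3% were called higher in chromatin, and the limit of inclusion through chromatin holds for these pairs too. Of the 411 pairs under members, in 291 hosts, 346 (84.2%) were called higher in chromatin, with a median log2 difference of ratios of 4.15. The median of the loci in these pairs was 4.44 and that of their hosts 0.10. The ratio was above 0 in 395 pairs and below 0 in 16.

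The 5 pairs with the highest chromatin count of the locus lay in KCTD8, EFNA5, NKAIN3 and DACH1. The EFNA5 locus at chr5:107592132-107618972 on the minus strand had 14478, 19999 and 14624 normalized counts in chromatin and 378, 358 and 284 in nucleoplasm. EFNA5 itself had 4965, 5969 and 5083 in chromatin and 3640, 3616 and 3441 in nucleoplasm. The locus differed by 5.58 and the host by 0.58, so the ratio differed by 5.001 ± 0.15 (SE, n = 3 and 3, limma adjusted p = 5.43e-09). Under ERCC scaling the locus stood at 4.26 and the host turned to -0.75. Another EFNA5 locus gave a difference of ratios of 5.09.

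In NKAIN3 the locus and the host differed in sign, except when scaled to the same total. The locus under 12 members had 12647, 17357 and 12555 normalized counts in chromatin and 395, 380 and 343 in nucleoplasm, a difference of 5.23, while NKAIN3 stood at -0.25, or 0.22 with the same total. The ratio differed by 5.48 ± 0.17 (SE, limma adjusted p = 5.43e-09). The locus under the longest member, in DACH1, had 11557 to 15696 in chromatin and 239 to 246 in nucleoplasm, a difference of 5.73, beside 1.60 for the host. The KCTD8 locus had 15340 to 19396 in chromatin and 431 to 570 in nucleoplasm, a difference of 5.06, and its host, a gene of an auxiliary GABA-B receptor subunit, differed by 2.46, which gave the lowest ratio of the 5 at 2.60. Chromatin replicate 2 was the highest in all 5 loci, and all nucleoplasm libraries stood below all chromatin libraries. The loci were chosen for high chromatin counts, which favours this order.

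**Figure D5:**
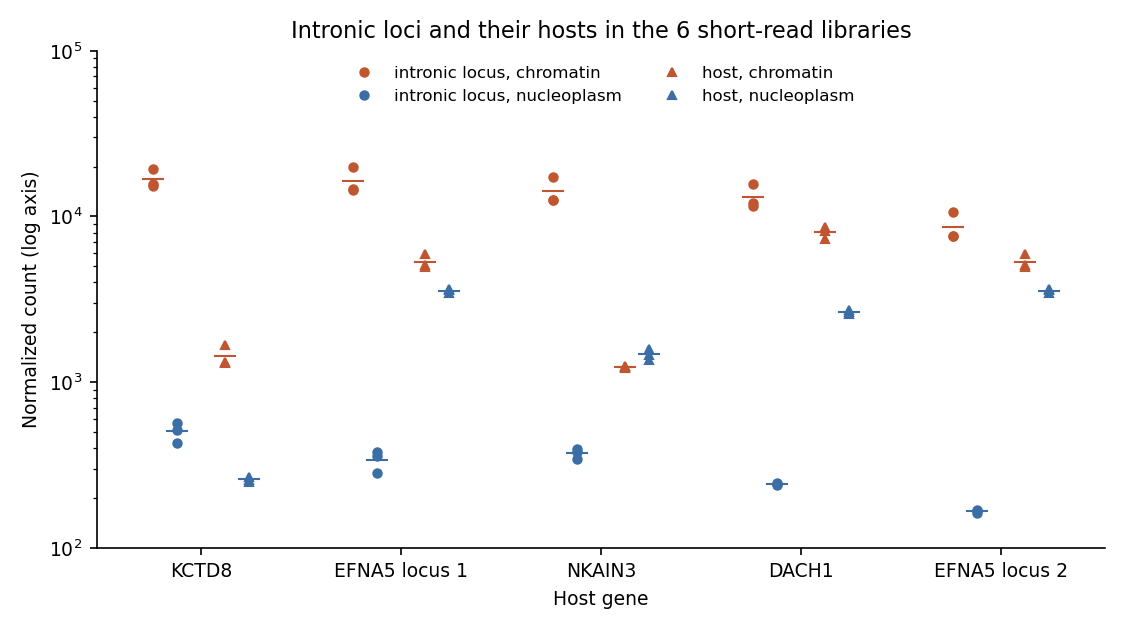
Normalized counts (y, log axis) of 5 intronic loci (circles) and their hosts (triangles) in 3 chromatin and 3 nucleoplasm libraries, with a bar at each mean. The loci stand at 7591 or more in chromatin and at 570 or less in nucleoplasm, while the hosts differ by log2 -0.25 in NKAIN3 (0.22 with the same total) and 0.58 in EFNA5 (-0.75 under ERCC scaling).

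The 4 intronic loci under members that were called in nucleoplasm were looked at after their values were seen. The one in RBFOX2, under the member with the RPL41 sequence, had 1187, 871 and 1204 normalized counts in chromatin and 9443, 9198 and 9482 in nucleoplasm, a difference of -3.12 ± 0.11 (SE, limma adjusted p = 3.12e-08). The one in LINC01492 had 801, 655 and 844 in chromatin and 3582, 3474 and 3638 in nucleoplasm, a difference of -2.22. Those in ENSG00000276850 and ENSG00000255872 stood at -2.55 and -2.35. In each of the 4 the fractions did not overlap, which the choice by call makes likely by itself.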

How the data were processed

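The authors aligned short reads with HISAT2 2.1.0 to hg38 with ERCC sequences, assembled them with StringTie guided by GENCODE, and deposited a signal per gene, its read count over the size factor that DESeq2 gave the library. They aligned long reads with minimap2, assembled and merged them with StringTie, and deposited TPM per transcript. Hosts and exons were taken from GENCODE release 44, where 25778 of 26695 reference genes of the short-read table had the same start or end. Division by the smallest value of each library gave whole reads, within a relative tolerance of 1e-06, for 100% of short-read values, which entered the count models. Genes with at least 10 normalized counts in at least 3 of 6 libraries and a span over 200 bases were tested, ERCC left out, with limma 3.58.1 (R 4.3.3) on log2(normalized count + 1), which understates the change of low genes. P-values measure the spread between libraries of 3 cultures from which both fractions were taken, fitted as unpaired. A host without its identifier was matched to the gene on its strand that shared most of its span (Jaccard index 0.5 or more). Member sequence was aligned with minimap2 2.31. The fit was checked on simulated data. Alternatives were edgeR 4.0.16, DESeq2 1.42.0, other pseudocounts, filters, scalings, fold minimums, memberships, single libraries left out and a replicate block. The named items were the 10 hosts with most loci, the 10 most abundant and 5 longest members, the 5 highest and 5 lowest hosts with at least 3 loci, 4 fraction markers, 2 hosts per list, of which 1 is not reported here, and 5 intron and host pairs. Members and lists were chosen with earlier results of these data known.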

Additional observations from a re-analysis of the deposited data

How the results depend on the processing

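Host calls depended on scaling and threshold. Scaling by ERCC standards gave 59 hosts in chromatin and 1340 in nucleoplasm, and scaling to the same total gave 449 and 19, while all genes moved too, to 11.9% and 34.4% and to 25.6% and 3.83%. With a 2-fold minimum the counts were 809 and 909, and with protein-coding hosts only 90 were called in chromatin. Leaving out 1 library, long-read ones included, gave 245 to 309 hosts in chromatin, 86 to 125 in nucleoplasm, 389 to 412 intronic loci under members and 345 to 364 ratios, all within 1.5 times. On the recovered reads, edgeR called 285 and 93 hosts and 394 loci, and DESeq2 called 306, 76 and 398. The other settings for these counts also stayed within 1.5 times. The number of members was 15847 to 16954 without 1 long-read library, 8374 at a TPM of at least 1 in both libraries, and 8602 for transcripts inside a gene on its other strand. The correlation between the long-read libraries was 0.352 with a pseudocount of 1 and 0.573 at a TPM of at least 1 in both. A share of 0.319% of members had at least 15 A of 20 past the 3′ end. Same-numbered short-read libraries deviated together weakly, with correlations of 0.0871, 0.0533 and 0.0626 over 26066 genes, and each library correlated best with its own number. The fit with a replicate block called 268 and 106 hosts, 390 loci and 346 ratios, the same counts as without the block. The number of reads behind each long-read TPM value is unknown, although the paper reports unequal read totals for the HAP1 long-read replicates. Most members stood near the commonest value of a library.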
